A study of Mus musculus with 20 samples.

Results

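The haemoglobin and erythroid transcripts of the mouse retina were followed through 5 genes, *Hba-a1*, *Hba-a2*, *Hbb-bs*, *Hbb-bt* and *Alas2*, chosen by gene symbol from 19716 genes listed for the whole series. All 5 were listed in all 20 libraries, and all 5 passed the filter on low values in both experiments. Whole retinas were sequenced in 4 groups of 5. WT OIR and Atf6 KO OIR mice, of both sexes and on the C57BL/6J background, were kept in 75% oxygen from P7 to P12 and then in room air for 5 days, and their retinas were taken at P17. This oxygen-induced retinopathy (OIR) first closes retinal vessels and then drives abnormal vessel growth. Atf6 KO OIR mice carried a germline stop in *Atf6*, which encodes a sensor of protein folding in the endoplasmic reticulum, in every cell of the body. PBS and Ceapin-A7 mice were WT, had no oxygen exposure described, and received 1 µL into both eyes at P30, with retinas taken 24 h later. The Ceapin-A7 injection held 10 µM of this ATF6 inhibitor in saline with a small share of an organic carrier. The control, labelled PBS, was saline with carrier. The labels give 0.05% to 0.1% dimethyl sulfide as the carrier of both solutions, whereas the study's methods name dimethyl sulfoxide at shares that differ between the injections. The 5 libraries of a group are 5 whole retinas and the animal behind each is not labelled, so p-values measure the spread between these libraries.

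Haemoglobin carries oxygen in red blood cells and is built from alpha chains and beta chains around haem. In adult mice of this background *Hba-a1* and *Hba-a2* encode the alpha chain, and *Hbb-bs* and *Hbb-bt* the beta chain. *Alas2*, on the X chromosome, encodes the erythroid form of the enzyme that begins haem synthesis, while the housekeeping form is encoded by *Alas1*. Mature mouse red cells have no nucleus, and young ones (reticulocytes) still hold large amounts of globin messenger RNA. In a tissue that is not washed free of blood, globin transcripts are usually read as a sign of the blood in its vessels or of bleeding. No perfusion of the animals is described.

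The sequences of the members set a limit on how far the paralogs can be told apart, so they are shown first. In GENCODE M21 transcripts (GRCm38) the coding sequences of *Hba-a1* and *Hba-a2* are 429 bases long and differ at 1 base, and those of *Hbb-bs* and *Hbb-bt* are 444 bases long and also differ at 1 base. The stretches around these bases are given from coding base 361 to 401 for the alpha genes and from 397 to 437 for the beta genes, counted from the A of the start codon, with the base that differs in capitals. It is C381T from *Hba-a1* to *Hba-a2* and C417T from *Hbb-bs* to *Hbb-bt*.

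Hba-a1: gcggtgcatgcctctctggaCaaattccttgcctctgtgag
Hba-a2: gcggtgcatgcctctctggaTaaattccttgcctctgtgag
Hbb-bs: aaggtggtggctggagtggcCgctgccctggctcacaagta
Hbb-bt: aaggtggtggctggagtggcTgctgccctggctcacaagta

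The longest coding stretch with no difference runs over 380 bases in the alpha pair and 416 bases in the beta pair, and a fragment that lies inside it matches both genes. The split of fragments between *Hba-a1* and *Hba-a2*, and between *Hbb-bs* and *Hbb-bt*, is therefore uncertain. It rests on fragments over the coding base that differs, on the untranslated ends and on the estimate made by RSEM. The sum of a pair depends on that split only through the lengths of the transcripts.

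The 250 bases before the start site of each gene, from RefSeq (GRCm38.p6), are shown to describe the genes. Their part in the values of these libraries was not tested. All 5 genes had a sequence in that table. Capitals mark 4 short motifs known from erythroid promoters, searched on both strands, and each is written out here. The GATA motif was searched as GATAAG only, and other spellings of it were not searched. The motif bound by Krüppel-like factors is CACCC. The CCAAT box is read as these 5 letters, and the TATA box as TATAA. Matches of the latter can overlap the reverse complement, as it does in *Alas2*. The *Hba-a2* window equals that of *Hba-a1* over 247 bases at a shift of 3 bases and is not printed.

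Hba-a1 (chr11:32283422-32283671, plus strand): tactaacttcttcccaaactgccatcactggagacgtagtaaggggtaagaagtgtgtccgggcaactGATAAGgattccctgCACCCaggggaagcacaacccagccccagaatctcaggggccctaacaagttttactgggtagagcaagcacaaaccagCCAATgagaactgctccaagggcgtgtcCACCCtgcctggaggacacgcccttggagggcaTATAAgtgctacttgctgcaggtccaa
Hbb-bs (chr7:103827929-103828178, minus strand): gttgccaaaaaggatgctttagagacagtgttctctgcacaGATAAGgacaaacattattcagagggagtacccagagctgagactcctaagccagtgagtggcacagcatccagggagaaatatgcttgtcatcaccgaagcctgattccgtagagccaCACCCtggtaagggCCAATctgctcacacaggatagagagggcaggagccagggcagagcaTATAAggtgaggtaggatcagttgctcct
Hbb-bt (chr7:103813924-103814173, minus strand): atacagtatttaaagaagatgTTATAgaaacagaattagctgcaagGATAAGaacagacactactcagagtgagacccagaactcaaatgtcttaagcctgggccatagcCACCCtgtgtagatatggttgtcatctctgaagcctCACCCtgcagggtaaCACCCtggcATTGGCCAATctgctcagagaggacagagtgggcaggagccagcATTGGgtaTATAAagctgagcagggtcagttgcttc
Alas2 (chrX:150547167-150547416, plus strand): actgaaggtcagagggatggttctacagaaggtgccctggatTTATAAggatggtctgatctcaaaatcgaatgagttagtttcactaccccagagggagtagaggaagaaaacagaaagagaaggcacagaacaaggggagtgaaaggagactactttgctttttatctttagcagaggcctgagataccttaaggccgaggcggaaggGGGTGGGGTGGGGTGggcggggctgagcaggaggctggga

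The windows of all 4 globin genes held all 4 motifs, which was so for 0.289% of 32851 promoter windows of the same length. Singly, GATAAG stood in 6.55%, CACCC in 52.0%, CCAAT in 33.8% and TATAA in 22.8% of windows. In the globin genes a TATAA began 27 to 30 bases before the start site. The *Alas2* window held CACCC, on the opposite strand and 3 times in a row, and TATAA, but neither GATAAG nor CCAAT. These matches describe letters only.

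Facts of the whole series bear on these values as follows. FPKM (fragments per kilobase of transcript, scaled to library size) summed to between 410599 and 456250 per library. Read totals are not part of these values, but genes with single fragments give a loose estimate of depth inside each experiment. A fragment was worth 1.4 times the usual value of its experiment in Ceapin-A7 replicate 3, and 0.909 to 1.07 times in every other library. The 1.4 is a median over 41 genes with quartiles of 0.924 and 1.46. It would put the depth of this replicate at about 0.714 of the other injected libraries. *Sag*, which encodes the arrestin of rod photoreceptors, was between 2380.01 and 3638 FPKM in OIR libraries and between 1285 and 2423 in injected ones, as a retina gives. *Atf6* was between 13.6 and 16.8 FPKM in Atf6 KO OIR and between 14.6 and 16.1 in WT OIR, and since the mutation is a premature stop, its RNA level does not check the genotype. No 2 libraries had identical values.

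Globin transcripts were abundant in OIR retinas. In WT OIR, taken here and elsewhere in replicate order, *Hba-a1* was at 1008, 414, 1128, 1179.8 and 176 FPKM. In Atf6 KO OIR it was at 204, 637, 598, 532 and 381 FPKM. The 3 highest libraries were all WT OIR and the lowest was WT OIR replicate 5, so that the 5 Atf6 KO OIR libraries lay inside the WT OIR range. Ranked by FPKM, *Hba-a1* was between the 20th and the 324th gene of these 10 libraries. Its mean was 781 ± 456 FPKM (SD, n = 5) in WT OIR and 470.3 ± 178 (SD, n = 5) in Atf6 KO OIR.

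*Hba-a2* was at 591, 242, 705, 704 and 105 FPKM in WT OIR and at 114, 403, 340.2, 336 and 257 FPKM in Atf6 KO OIR. The order of the libraries was nearly that of *Hba-a1*, with WT OIR replicates 1, 3 and 4 on top and WT OIR replicate 5 at the bottom. The beta gene *Hbb-bs* was at 459, 177, 475, 531 and 87.0 FPKM in WT OIR and at 74.5, 278, 251.6, 212 and 146 FPKM in Atf6 KO OIR. Here Atf6 KO OIR replicate 1 was lowest, just under WT OIR replicate 5, and the groups overlapped again.

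*Hbb-bt*, the less abundant beta gene, was at 49.8, 30.6, 75.7, 84.05 and 10.2 FPKM in WT OIR and at 13.7, 39.4, 43.1, 30.35 and 18.6 FPKM in Atf6 KO OIR. *Alas2* was at 4.36, 2.89, 6.42, 6.19 and 0.77 FPKM in WT OIR and at 1.39, 3.48, 3.78, 3.65 and 1.77 FPKM in Atf6 KO OIR. For both genes the same 3 WT OIR libraries were highest and WT OIR replicate 5 was lowest.

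**Figure D1:**
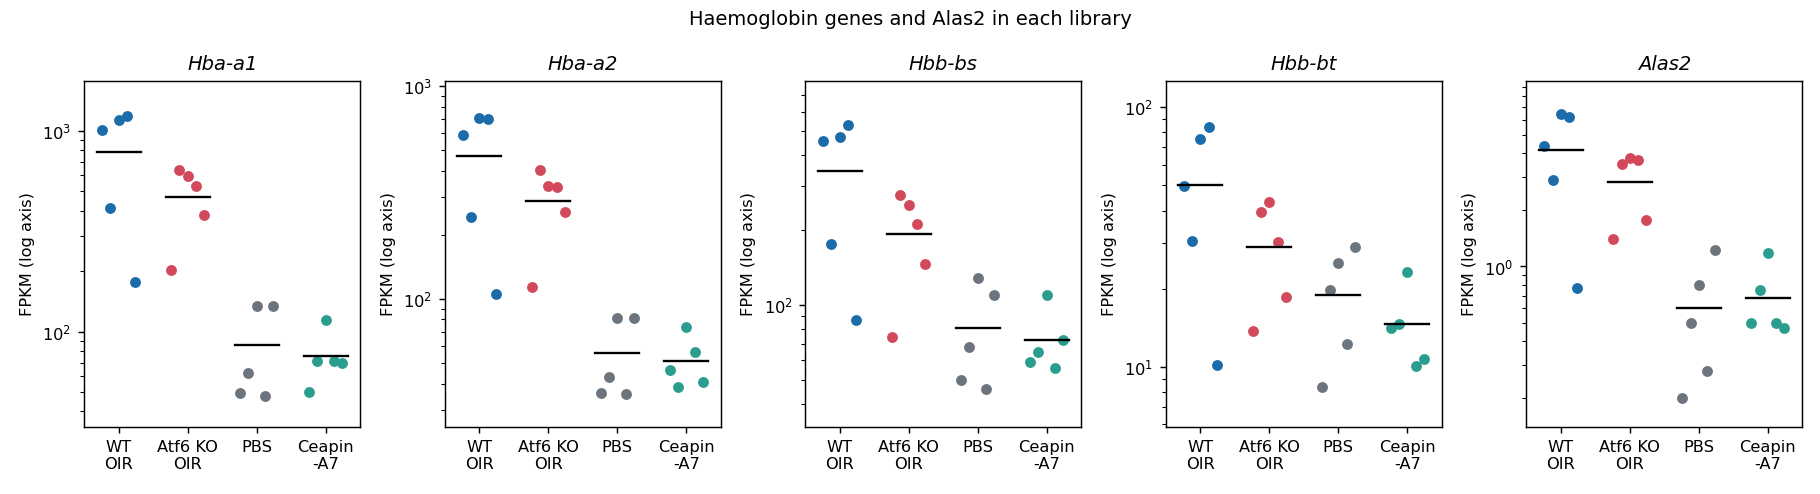
FPKM of each gene on a log axis in the 20 libraries, 1 point per library with replicates 1 to 5 from left to right in each group and a line at the group mean. In every panel WT OIR replicates 1, 3 and 4 are the highest points, and WT OIR replicate 5 lies near the injected groups.

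Whether loss of Atf6 changes these transcripts in OIR was asked with limma over all 15704 genes with a mean FPKM above 0.1, on log2(FPKM + 0.1). None of the 5 members passed an adjusted p of 0.05 (Benjamini-Hochberg), beside 5 genes in all, or 0.0318% of the genes tested. With no adjustment, 0 of 5 members had a p of 0.05 or less, beside 12.7% of all genes in either direction and 5.83% with lower values in Atf6 KO OIR. This background is itself unstable, since the 2002 genes behind the 12.7% became 1091 without Atf6 KO OIR replicate 4 and 4014 without Atf6 KO OIR replicate 5. All 5 estimates were below 0 in Atf6 KO OIR, and the median over the 5 was -0.51, beside 0.0028 over all genes tested. Since the members share their libraries and move together, their common sign is 1 observation and not 5.

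For *Hba-a1* the log2 fold change was -0.51 ± 0.49 (SE), an estimate of 0.702-fold with a 95% interval from 0.334 to 1.48, and the adjusted p from limma was 0.620. The exact permutation test, which takes every way to divide these 10 libraries 5 and 5, gave a two-sided p of 0.397 for this gene, where the smallest possible value is 0.0079. *Hbb-bs* had the largest estimate, -0.67 ± 0.49, with a limma adjusted p of 0.519 and an exact permutation p of 0.317. For *Hba-a2*, *Hbb-bt* and *Alas2* the log2 fold changes were -0.48, -0.57 and -0.33, with limma adjusted p of 0.652, 0.594 and 0.751. The intervals of the 5 genes reach from a fall of 2.62- to 3.36-fold to a rise of 1.32- to 1.67-fold, so neither a change of those sizes nor equal levels is shown. None of the 5 had groups that did not overlap, beside 1.78% of all genes, or 0.694% with lower values in Atf6 KO OIR.

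The size of these estimates depended on single libraries, in both directions. Without WT OIR replicate 5 the log2 fold changes were -0.96 for *Hba-a1*, -0.93 for *Hba-a2*, -1.09 for *Hbb-bs*, -1.05 for *Hbb-bt* and -0.81 for *Alas2*. All 5 then had an unadjusted p between 0.0131 and 0.0339 from limma, beside 1724 of 15718 genes in that fit, and the adjusted p lay between 0.388 and 0.429, so that none was called. Without Atf6 KO OIR replicate 1 the estimates shrank to -0.24 for *Hba-a1*, -0.17 for *Hba-a2*, -0.37 for *Hbb-bs*, -0.33 for *Hbb-bt* and -0.11 for *Alas2*. Leaving out WT OIR replicate 1, 3 or 4 also brought *Hba-a1* nearer to 0, to -0.33, -0.30 and -0.30, and *Alas2* to -0.22, -0.10 and -0.12. Without Atf6 KO OIR replicate 5 *Alas2* was at -0.21. When limma weighted libraries by their own spread (array weights), the estimates instead moved to between -0.29 and -0.11 for the globins and to 0.08 for *Alas2*.

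**Figure D2:**
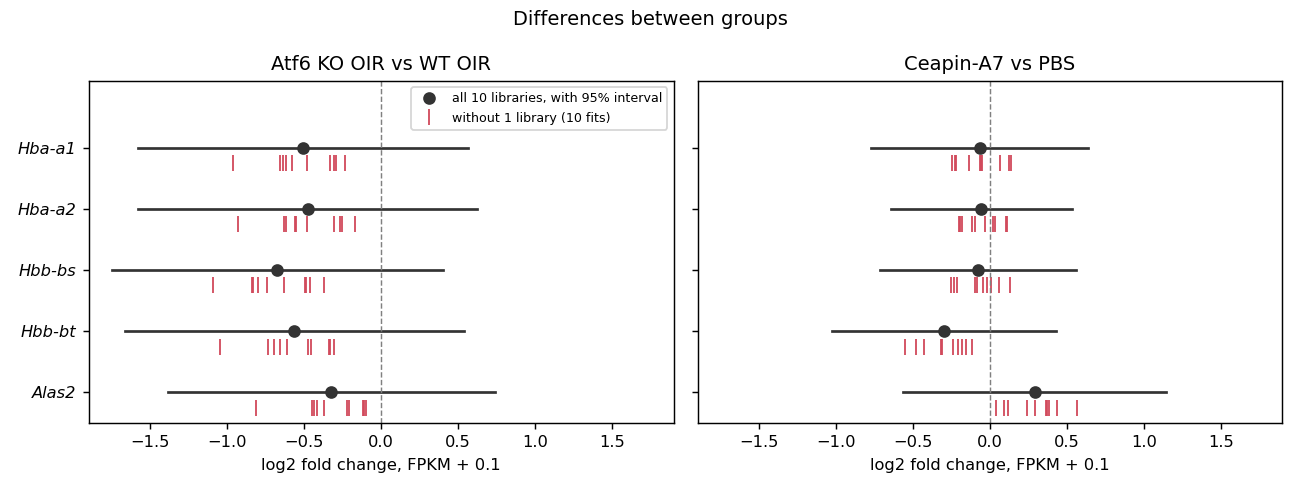
Log2 fold change of FPKM + 0.1 for each gene in Atf6 KO OIR against WT OIR and in Ceapin-A7 against PBS, with the estimate from all 10 libraries (point), its 95% interval (line) and the 10 estimates that leave out 1 library each (ticks). All intervals include 0, and the leftmost tick of every gene in the OIR panel, between -1.09 and -0.81, is the fit without WT OIR replicate 5.

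In the injected P30 retinas the same genes were lower. *Hba-a1* was at 49.4, 61.8, 134, 47.6 and 133 FPKM in PBS replicates 1 to 5 and at 50.2, 71.6, 114, 71.5 and 70.0 FPKM in Ceapin-A7 replicates 1 to 5. *Hba-a2* was at 36.3, 43.0, 81.4, 35.5 and 81.4 FPKM in PBS and at 46.4, 38.5, 74.0, 56.4 and 40.5 FPKM in Ceapin-A7. In both genes PBS replicates 3 and 5 and Ceapin-A7 replicate 3 were the 3 highest libraries, and PBS held both the highest and the lowest.

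*Hbb-bs* was at 49.85, 67.6, 129, 46.0 and 109.95 FPKM in PBS and at 59.2, 64.65, 109.6, 55.9 and 72.05 FPKM in Ceapin-A7. *Hbb-bt* was at 8.35, 19.8, 25.2, 12.2 and 28.9 FPKM in PBS and at 14.1, 14.65, 23.2, 10.1 and 10.8 FPKM in Ceapin-A7. The same 3 libraries led in both. *Alas2* was close to the lower end of what 2 decimals resolve, at 0.20, 0.50, 0.80, 0.28 and 1.23 FPKM in PBS and at 0.50, 0.75, 1.18, 0.50 and 0.47 FPKM in Ceapin-A7.

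Ceapin-A7 and PBS retinas were compared in the same way over 15408 genes. With limma, 0 of 5 members passed an adjusted p of 0.05, beside 0 genes in all (0% of those tested), and 0 of 5 had an unadjusted p of 0.05 or less, beside 10.4% of all genes, or 5.32% with lower values in Ceapin-A7. The 1596 genes behind the 10.4% became 953 without PBS replicate 4 and 2532 without PBS replicate 2. The log2 fold changes were -0.07 ± 0.32 (SE) for *Hba-a1*, -0.06 ± 0.27 for *Hba-a2*, -0.08 ± 0.29 for *Hbb-bs*, -0.30 ± 0.33 for *Hbb-bt* and 0.29 ± 0.39 for *Alas2*. The limma adjusted p was between 0.740 and 0.951 and the exact permutation p between 0.468 and 0.865. The 95% interval for *Hba-a1* ran from 0.585- to 1.56-fold, and that for *Alas2* from 0.675- to 2.21-fold. For *Hba-a1*, *Hba-a2* and *Hbb-bs* the sign depended on single libraries, since leaving out PBS replicate 3 gave 0.14, 0.11 and 0.13. All groups overlapped, beside 1.47% of all genes whose groups did not, or 0.688% with lower values in Ceapin-A7.

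The order of the 4 groups by mean was the same for the 4 globin genes, with WT OIR above Atf6 KO OIR above PBS above Ceapin-A7, and neighbours in this order overlapped except Atf6 KO OIR and PBS for *Hba-a1* and *Hba-a2*. For *Alas2* the means were 4.13 ± 2.36, 2.81 ± 1.14, 0.602 ± 0.421 and 0.68 ± 0.302 FPKM (SD, n = 5 each), with Ceapin-A7 above PBS, and the lowest Atf6 KO OIR library, at 1.39 FPKM, lay above the highest Ceapin-A7 library, at 1.18 FPKM. For *Hba-a1* the lowest of 10 OIR libraries, at 176 FPKM, lay above the highest of 10 injected libraries, at 134 FPKM, and for *Hba-a2* the same held with 105 and 81.4 FPKM. For *Hbb-bs*, *Hbb-bt* and *Alas2* the OIR and injected libraries overlapped. The ratio of the means of 10 and 10 libraries was 7.78 for *Hba-a1*, 7.12 for *Hba-a2*, 3.52 for *Hbb-bs*, 2.36 for *Hbb-bt* and 5.41 for *Alas2*. These experiments differ in age, oxygen exposure and injection, which cannot be told apart here, and their tables were scaled apart, so the contrast is given with no test. In bulk RNA, fewer red cells in the sample and less globin RNA in each red cell cannot be told apart either.

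The ratio of alpha to beta transcripts did not overlap between the experiments. The FPKM of *Hba-a1* plus *Hba-a2* over that of *Hbb-bs* plus *Hbb-bt* was 3.14, 3.16, 3.33, 3.06 and 2.90 in WT OIR and 3.59, 3.27, 3.18, 3.57 and 3.89 in Atf6 KO OIR. It was 1.47, 1.199, 1.40, 1.43 and 1.55 in PBS and 1.32, 1.39, 1.42, 1.94 and 1.33 in Ceapin-A7. The lowest OIR library was thus 1.495 times the highest injected library, although globin levels varied 6.60-fold inside WT OIR. WT OIR (mean 3.12 ± 0.156, SD, n = 5) and Atf6 KO OIR (3.50 ± 0.280, SD, n = 5) overlapped, as did PBS (1.41 ± 0.130) and Ceapin-A7 (1.48 ± 0.260). Ceapin-A7 replicate 4 stood above the other injected libraries.

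Within each pair of paralogs, where the split is uncertain, *Hba-a1* made up 62.6% ± 0.628 of alpha FPKM in WT OIR, 62.0% ± 1.87 in Atf6 KO OIR, 59.6% ± 2.39 in PBS and 59.4% ± 5.40 in Ceapin-A7 (SD, n = 5 each). *Hbb-bt* made up 12.5% ± 2.198, 13.3% ± 1.75, 19.0% ± 3.52 and 16.7% ± 2.56 of beta FPKM in the same order. Its share lay between 9.80% and 15.5% in OIR libraries and between 12.99% and 22.7% in injected ones, with overlap. *Alas2* per 1000 FPKM of globin was 2.52 ± 0.538, 2.91 ± 0.513, 2.32 ± 0.779 and 3.12 ± 0.674, and all groups overlapped. Its mean was 2.72 over the 10 OIR and 2.72 over the 10 injected libraries, with single libraries from 1.39 to 3.96. This closeness holds only for alpha and beta summed. The ratio of OIR to injected means was 5.41 for *Alas2*, 7.52 for the alpha pair and 3.32 for the beta pair.

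**Figure D3:**
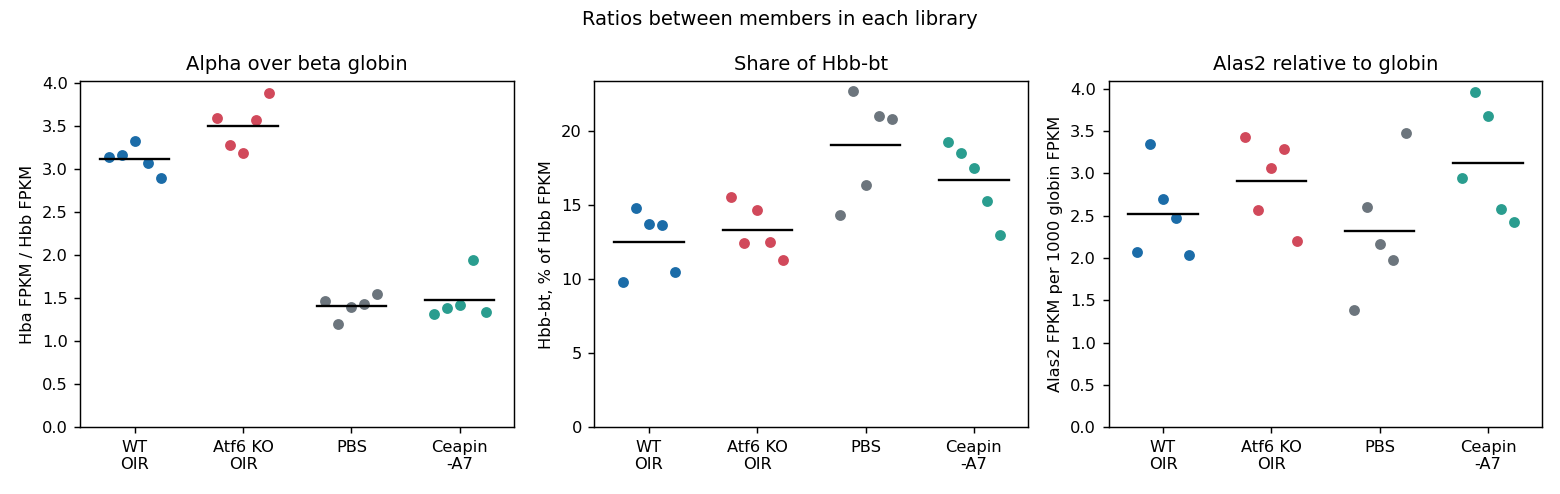
Alpha over beta globin FPKM, the share of *Hbb-bt* in beta globin FPKM, and *Alas2* FPKM per 1000 globin FPKM, 1 point per library and a line at each group mean, on axes that start at 0. The alpha over beta ratio lies between 2.90 and 3.89 in OIR libraries and between 1.199 and 1.94 in injected ones, while the *Alas2* proportion overlaps throughout.

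The members rose and fell together from library to library. After centring each group on its mean, *Hba-a1* and *Hbb-bs* had a Pearson r of 0.995 over the 10 OIR libraries (permutation p = 2e-05, the smallest that 100000 resamples can give, adjusted p = 8e-05) and a Spearman rho of 1.0 (permutation p = 2e-05, adjusted p = 8e-05). Without the 2 libraries farthest from the median of *Hba-a1*, r was 0.991. For *Hba-a1* and *Alas2* in OIR, r was 0.964 (permutation p = 0.00024, adjusted p = 0.00048) and rho 0.879 (permutation p = 0.00164, adjusted p = 0.0032), with r at 0.869 without those 2 libraries.

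In the injected retinas the same pairs gave an r of 0.953 (permutation p = 0.00038, adjusted p = 0.000507) and a rho of 0.855 (permutation p = 0.0032, adjusted p = 0.0032) for *Hba-a1* and *Hbb-bs*. They gave an r of 0.911 (permutation p = 0.00068, adjusted p = 0.00068) and a rho of 0.855 (permutation p = 0.00266, adjusted p = 0.0032) for *Hba-a1* and *Alas2*. Without the 2 farthest libraries r was 0.914 and 0.870. These 4 relations were the ones computed with a test, and the adjustment is over them. The shuffling ran over both groups at once after centring, and the groups differed in spread, so these p-values are approximate and may be too small. They held inside each experiment, and no sequencing batch is labelled.

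The spread between libraries of 1 group was unusually wide for these genes. In WT OIR the SD of log2(FPKM + 0.1) was 1.18 for *Hba-a1*, 1.19 for *Hba-a2*, 1.12 for *Hbb-bs*, 1.21 for *Hbb-bt* and 1.18 for *Alas2*, beside a median of 0.156 over the 15704 genes tested. Between 99.3% and 99.5% of those genes had a narrower spread. In Atf6 KO OIR the SDs lay between 0.62 and 0.75 (median of all genes 0.162), in PBS between 0.61 and 0.88 (0.139) and in Ceapin-A7 between 0.38 and 0.50 (0.0956). Ceapin-A7 was thus the group with the least spread, and even there at least 90.5% of genes were narrower than each member.

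**Figure D4:**
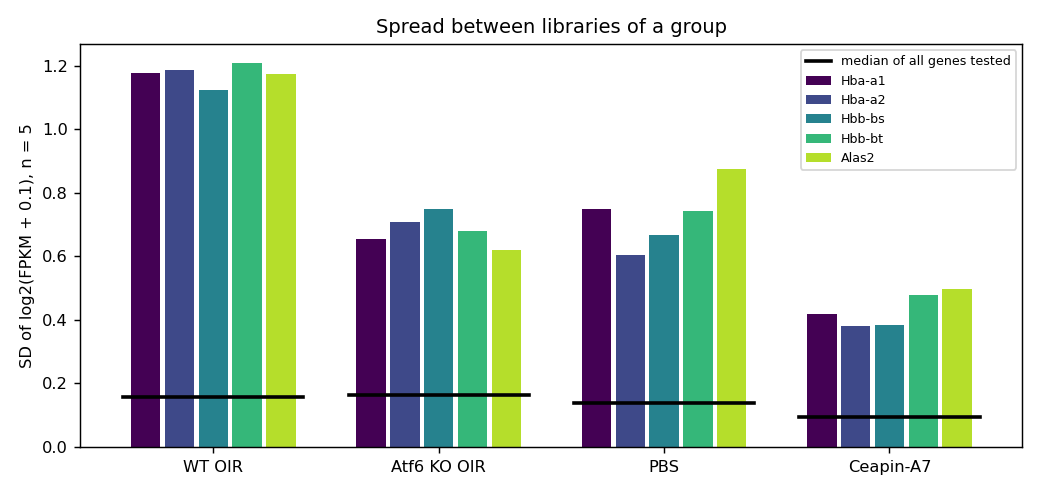
Standard deviation of log2(FPKM + 0.1) over the 5 libraries of each group for the 5 genes (bars from 0), with a black line at the median of all genes tested in that experiment. The bars of WT OIR reach 1.12 to 1.21, against a median of 0.156, and the bars of every group stand above its line.

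Lens transcripts, which a clean retina should lack apart from crystallins that retinal cells make, also differed between libraries. After centring each group on its mean, the Pearson r of tested lens genes with the globins ran from -0.875 (*Crygd*) to -0.441 (*Cryab*) in OIR. In injected retinas it ran from -0.719 (*Lim2*) to -0.581 (*Cryga*). The 17 lens genes summed to 111, 282, 73.2, 113 and 1016 FPKM in WT OIR, so that the libraries lowest in globin, replicates 5 and 2, were the highest in lens. In Atf6 KO OIR the lens sum was between 73.6 and 95.2 FPKM in all 5 libraries, most of it from *Cryab*, at 65.7 to 84.9 FPKM, while the globin sum still ranged from 405 to 1357 FPKM. In PBS the lens sum was 7592, 3021, 77.1, 2966 and 92.3 FPKM, and replicates 3 and 5, with little lens, held the most globin, at 369.9 and 354 FPKM beside 144, 192 and 141. *Cryaa*, a crystallin of lens fibres, was at 34.6 ± 55.002 FPKM in WT OIR and 0.084 ± 0.0945 in Atf6 KO OIR (SD, n = 5, limma adjusted p = 0.357). In Ceapin-A7 the lens sum was 12564, 212, 1434, 229 and 5934 FPKM, and there the library with the most globin, replicate 3 at 321 FPKM, was not one with little lens.

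With log2 of the lens sum as a covariate, chosen after seeing these values, the OIR estimates became -1.42 ± 0.34 (SE) for *Hba-a1*, -1.53 ± 0.38 for *Hbb-bs* and -1.24 ± 0.33 for *Alas2*. All 5 members then had an unadjusted p between 0.0014 and 0.0027 from limma, beside 1510 of 15704 genes in the same fit, and an adjusted p of 0.375, so 0 of 5 were called. This fit leans on WT OIR replicates 2 and 5, as no Atf6 KO OIR library had a raised lens sum. In Ceapin-A7 against PBS the same covariate gave 0.04 for *Hba-a1* and 0.41 for *Alas2*, with 0 of 5 members called. The lens water channel gene *Mip* had the smallest p of that list in this comparison, with a log2 fold change of 1.59 (limma adjusted p = 0.755). What part the lens RNA had in the globin values was not tested.

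**Figure D5:**
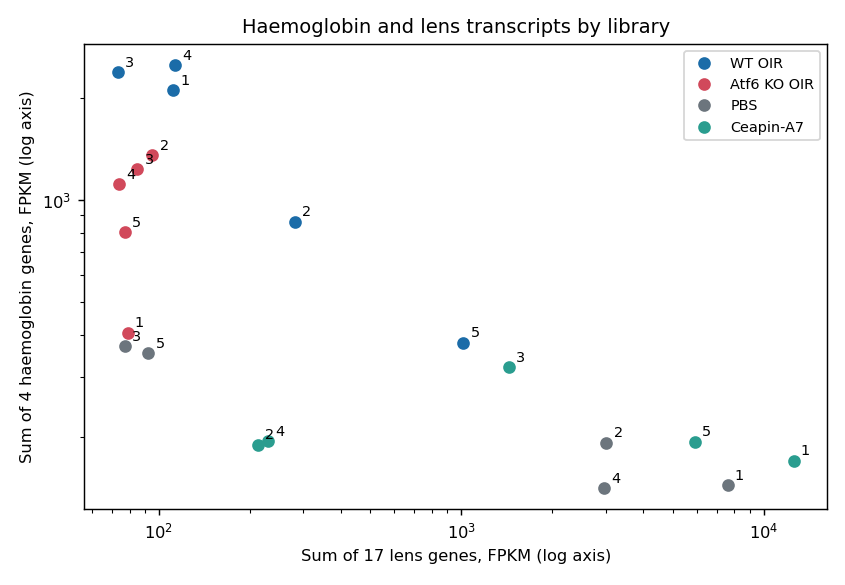
Sum of the 4 haemoglobin genes against the sum of the 17 lens genes in each library, both in FPKM on log axes, with replicate numbers beside the points. WT OIR replicates 2 and 5 combine lower globin with a raised lens sum, whereas the 5 Atf6 KO OIR libraries spread from 405 to 1357 FPKM of globin at nearly the same lens sum.

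Other erythroid genes were examined to see which parts of the red cell programme were present. The chaperone gene *Ahsp*, whose protein holds free alpha chains, was listed above 0 in 9 of 10 OIR libraries, at up to 0.82 FPKM, and in 1 of 10 injected libraries, at 0.18 FPKM. *Slc4a1* (the band 3 anion exchanger of the red cell membrane) was at most 0.17 FPKM and *Gata1*, the master regulator of erythroid precursors, at most 0.07 FPKM in any library. The embryonic alpha gene *Hba-x* was listed at 0 in all 20 libraries. The embryonic beta gene *Hbb-y* was above 0 in 2 Atf6 KO OIR, 1 PBS and 1 Ceapin-A7 library, at up to 0.12 FPKM, and did not pass the filter. Of 9 erythroid transcription factors 6 passed the filter in each experiment, *Gata1*, *Nfe2* and *Gfi1b* being too low, and 0 were called. Of these, *Tal1*, a partner of GATA1, had the smallest p in OIR, with 0.542 ± 0.147 FPKM in WT OIR and 0.394 ± 0.0559 in Atf6 KO OIR (SD, n = 5, limma adjusted p = 0.417). *Zfpm1*, which encodes a GATA cofactor, had it after Ceapin-A7, with a log2 fold change of -0.13 (limma adjusted p = 0.513).

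Of 18 red cell membrane genes 11 were tested in each experiment and 0 were called, with a median log2 fold change of -0.04 in OIR and -0.03 after Ceapin-A7. The members of that list at several FPKM or more, such as *Epb41*, *Aqp1* and *Ank1*, are also expressed by retinal cells. *Ank1* (ankyrin) was at 9.24 ± 1.59 FPKM in WT OIR and 7.75 ± 1.09 in Atf6 KO OIR, and *Ermap*, an erythroid membrane protein gene, at 0.186 ± 0.0902 in PBS and 0.106 ± 0.0385 in Ceapin-A7 (SD, n = 5). Of 18 erythroid partner genes, 16 were listed, 12 were tested in OIR and 11 after Ceapin-A7, and 0 were called. *Car2*, the carbonic anhydrase of red cells and Muller glia, had a log2 fold change of 0.21 in Atf6 KO OIR (limma adjusted p = 0.361). *Slc25a37* (mitoferrin, which brings iron into mitochondria for haem) was at 32.2 ± 14.1 FPKM in PBS and 19.3 ± 3.26 in Ceapin-A7 (SD, n = 5, log2 fold change -0.66 ± 0.23, limma unadjusted p = 0.0135 and adjusted p = 0.472). *Epor*, the erythropoietin receptor gene, chosen after its values were seen, was at 0.71 to 1.11 FPKM in WT OIR and at 0.51 to 0.67 FPKM in Atf6 KO OIR without overlap, with an adjusted p of 0.362 from limma.

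Haem synthesis genes shared by all cells showed small differences. All 12 genes of that list were tested in both experiments, 0 were called in either, and 0 had an unadjusted p of 0.05 or less. The median log2 fold change was -0.03 in OIR and 0.03 after Ceapin-A7. *Alas1*, the housekeeping counterpart of *Alas2*, was at 14.9 ± 0.640, 15.02 ± 0.739, 15.5 ± 0.985 and 16.1 ± 0.572 FPKM in WT OIR, Atf6 KO OIR, PBS and Ceapin-A7 (SD, n = 5 each). It thus stood above *Alas2* in every group, and its highest library was 17.1 FPKM against a lowest of 13.95. The closing enzyme gene *Fech* lay between 14.4 and 17.1 FPKM in the group means, *Urod* between 28.6 and 31.1 and *Ppox* between 25.05 and 31.2. The mitochondrial carrier gene *Slc25a39*, with the smallest p in OIR, was at 31.7 ± 2.65 FPKM in WT OIR and 27.6 ± 3.24 in Atf6 KO OIR (SD, n = 5, limma adjusted p = 0.400), and its relative *Slc25a38* at 18.5 ± 1.60 and 16.7 ± 0.908.

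Genes that handle released haem and iron were described beside the globins. Of 19 such genes, 17 were tested in OIR and 16 after Ceapin-A7, with 0 called in either. *Hmox1*, the inducible haem oxygenase that breaks haem down, was chosen after its values were seen, and it was at 76.6, 19.9, 56.2, 58.8 and 31.5 FPKM in WT OIR and at 14.6, 42.5, 35.9, 15.45 and 24.3 FPKM in Atf6 KO OIR. WT OIR replicates 1, 3 and 4, highest in globin, were highest here too, and the groups overlapped (log2 fold change -0.83, limma unadjusted p = 0.0489 and adjusted p = 0.390). In injected retinas *Hmox1* was between 2.44 and 10.8 FPKM, below the lowest OIR library. After centring each group on its mean, its Pearson r with the globins was 0.694 in OIR and -0.061 in injected retinas. PBS replicate 3, with the most globin of PBS, had the least *Hmox1* of that group, at 3.06 FPKM. Ceapin-A7 replicate 3, with the most globin of Ceapin-A7, had the most *Hmox1* there, at 7.52 FPKM. *Slc48a1*, a haem transporter gene, was slightly higher in Atf6 KO OIR, at 76.5 ± 4.96 FPKM against 69.9 ± 4.95 (SD, n = 5, limma adjusted p = 0.362), and its scaled values did not overlap. *Flvcr2* was at 1.28 ± 0.143 FPKM in Ceapin-A7 and 1.78 ± 0.260 in PBS (SD, n = 5), without overlap, with a limma adjusted p of 0.472.

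Globins that are not made in red cells were examined too. *Cygb* (cytoglobin) was at 65.7 ± 8.53, 53.7 ± 7.51, 69.7 ± 6.70 and 68.2 ± 3.23 FPKM in WT OIR, Atf6 KO OIR, PBS and Ceapin-A7 (SD, n = 5 each), with a limma adjusted p of 0.390 in OIR, and *Ngb* (neuroglobin) was between 1.67 and 2.67 FPKM in all 20 libraries. *Mb* (myoglobin, a muscle gene) was at most 0.56 FPKM except for 45.6 FPKM in Ceapin-A7 replicate 4, the library with the highest alpha over beta ratio of its group. None of the 3 was called.

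Markers of other blood cells were low. Of 12 neutrophil genes 6 were tested in OIR and 4 after Ceapin-A7, and the granule gene *Camp* was listed at 0 in all 20 libraries. The neutrophil sum ran from 16.1 to 39.7 FPKM in OIR and from 4.0 to 67.2 FPKM in injected retinas, most of it from *Lcn2*, which retinal glia also make, at 27.6 ± 7.57 FPKM in WT OIR and 18.6 ± 5.27 in Atf6 KO OIR (SD, n = 5, limma adjusted p = 0.363). *S100a9* was at most 0.56 FPKM. *Csf3r*, a receptor of granulocytes and microglia, was at 1.17 and 1.40 FPKM in the OIR means. Among 10 platelet genes, *Pf4* was at 3.60 ± 0.724 FPKM in WT OIR, 3.40 ± 1.72 in Atf6 KO OIR, 0.358 ± 0.424 in PBS and 1.12 ± 0.601 in Ceapin-A7 (SD, n = 5 each). *Gp1bb*, also expressed in neural tissue, was between 9.52 and 15.5 in the group means. The platelet genes that missed the filter in both experiments were *Ppbp*, *Gp9*, *Gp1ba*, *Tubb1*, *Treml1* and *Clec1b*. Each was at most 0.26 FPKM in any library, so *Pf4* does not stand for the whole list. The lymphocyte sum of 10 listed genes was at most 3.21 FPKM, with *Cd8a* at 0.674 and 0.898 FPKM in the OIR means and *Cd79a* at 0.174 and 0.112 in those of PBS and Ceapin-A7. None of these genes was called.

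Vessel and immune lists moved as follows beside the globins. All 13 endothelial genes were tested in both experiments with 0 called. In OIR 12 of 13 had estimates below 0 in Atf6 KO OIR, beside 49.3% of all genes (median -0.31, beside 0.0028 over all genes). Of the 13, 4 also had an unadjusted p of at most 0.05, beside 5.83% of all genes in that direction. Other lists moved as well in this comparison. At the same unadjusted p, 13 of 16 lens genes and 2 of 12 microglia and macrophage genes were lower in Atf6 KO OIR, beside the same 5.83%. Higher there were 6 of 13 pigment epithelium genes and 3 of 10 rod genes. For scale, 12.7% of all genes had such a p in either direction, and 5.83% with lower values. *Emcn*, a capillary and venous sialomucin, was at 11.3 ± 2.43 FPKM in WT OIR and 8.59 ± 0.340 in Atf6 KO OIR (SD, n = 5, limma adjusted p = 0.362). The summed endothelial level in WT OIR was 187, 206, 215, 141 and 159 FPKM. Replicate 4, with the most globin, had the lowest sum of its group, and replicate 3, next in globin, had the highest. Over the 10 OIR libraries *Emcn* had a Pearson r of 0.727 with the globins, *Pecam1* 0.667 and *Egfl7* 0.651. Their Spearman rho was 0.370, 0.467 and 0.394. These were the highest Pearson values of the 13 endothelial genes and were picked out after they were seen. The other endothelial genes lay between -0.22 (*Kdr*) and 0.31 (*Erg*). Over the 10 injected libraries *Emcn*, *Pecam1* and *Egfl7* were at -0.31, -0.03 and -0.37. These values describe libraries that share depth and dissection. After Ceapin-A7, *Egfl7* was at 7.92 ± 0.372 FPKM against 6.73 ± 0.812 in PBS (SD, n = 5, limma adjusted p = 0.472), and the microglial gene *P2ry12* at 1.62 ± 0.166 against 0.966 ± 0.347 (limma adjusted p = 0.472). Of 12 microglia and macrophage genes 0 were called in either experiment, *Aif1* having the smallest p in OIR, with 1.84 ± 0.256 FPKM in WT OIR and 1.39 ± 0.285 in Atf6 KO OIR. Of 13 pigment epithelium genes and 10 rod genes 0 were called. In OIR 12 of 13 pigment epithelium genes had estimates above 0 in Atf6 KO OIR (median 0.66). So did 9 of 10 rod genes (median 0.10), whereas 49.3% of all genes tested were below 0. *Slc6a20a* had the smallest p of the pigment epithelium list in both experiments, and *Pde6b* led the rod list. After Ceapin-A7 the rod median was 0.17, with *Sag* leading that list. The pigment epithelium median of 0.03 covered members on both sides. At an unadjusted p of at most 0.05, the pigment genes *Mlana*, *Pmel*, *Dct* and *Tyr* had log2 fold changes of 2.13, 1.85, 1.57 and 1.15, whereas *Slc6a20a*, *Lrat* and *Ttr* were at -1.098, -0.88 and -0.86, with limma adjusted p of 0.472 to 0.477. These 7 of 13 were picked out after their values were seen. Beside them, 10.4% of all genes had such a p in either direction, and 5.32% with lower values in Ceapin-A7. The part of these cell types in the globin values was not tested.

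The genes most like the globins over libraries were sought by Pearson r with the mean of the 4 centred log2 globin values. Genes averaging 1 FPKM or more were searched, and *Alas2* was kept whatever its level. It averaged 0.641 FPKM in the 10 injected libraries, so it entered the injected and the 20-library comparisons only by that exception. *Alas2* was ahead of every other gene in OIR, with r = 0.969 over 10 libraries beside 13056 other genes, and after it came *Zfp973* (0.921), *Mapre1* (0.920), *Golm1* (0.912), *Snrpd3* (0.910) and *Ccdc84* (0.906). In injected retinas *Trpv2* (0.968) came before *Alas2* (0.953) among 12779 other genes, and *Kctd1* (0.914), *C330007P06Rik* (0.903), *Smim14* (0.887) and *P2ry12* (0.881) followed. Over all 20 libraries *Alas2* led with 0.956, and the next genes, *Snrpd3* (0.788), *Vcpkmt* (0.765), *Rnf8* (0.763), *Atpif1* (0.749) and *Med10* (0.740), were well below it. *Blvrb*, a biliverdin reductase gene of the haem and iron list, chosen after its values were seen, ranked 136 in OIR (0.756), 624 in injected retinas (0.557) and 10 over all 20 libraries (0.706). No search was made for other genes that rank high in both experiments. With 10 libraries and this many genes, values of this size are a description only, and these points share the depth and the dissection of their libraries.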

How the data were processed

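Whole-retina RNA-seq of 20 mouse libraries was analysed from gene FPKM tables deposited by the authors, 1 per group. Per the labels and the study's methods, the authors aligned reads with HISAT2 2.0.4, estimated FPKM with RSEM 1.2.18 on GRCm39 and tested with DESeq2 1.4.5. Columns of single libraries were used throughout. FPKM holds no read counts, so no counting interval is given, and a share of paralog reads is an RSEM estimate. Each experiment (10 libraries) was scaled by median-of-ratios factors, filtered at a mean FPKM above 0.1 and tested on log2(FPKM + 0.1) with limma 3.58.1 (R 4.3.3, empirical Bayes with trend, Benjamini-Hochberg adjustment, threshold 0.05). Group values are unscaled FPKM. Single genes also had an exact two-sided permutation test. Likeness, ratios and spread were computed with Python 3.11.15, numpy 2.4.6, scipy 1.17.1 and pandas 2.3.3. The fit was tested on simulated data. Tables of different experiments were normalised separately and were not tested against each other. Beyond the 5 members, genes were named as the smallest p of each list per comparison, up to 6 genes of the haem synthesis and blood cell lists by mean, where at least 1 FPKM in a group, the 5 most like genes, and genes stated as chosen after their values were seen. The members and lists were chosen with earlier results of these data known. Alternatives covered the pseudocount, filter, scaling, array weights, all 20 libraries, the replicate number, single libraries and a lens covariate.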

Additional observations from a re-analysis of the deposited data

Results flagged for a closer look

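In all, 10 quantities built from the members were examined in each of the 4 groups for a library far from the other 4, and 2 of 40 sets held one, where chance gives about 5%. The summed globin level of Ceapin-A7 replicate 3 was 321.11 FPKM, whereas the other Ceapin-A7 libraries lay between 169.92 and 193.95 FPKM. This library also had the lowest estimated depth of the injected libraries, by the loose estimate given above, and its lens sum was 1434 FPKM. The alpha over beta ratio of Ceapin-A7 replicate 4 was 1.93864, whereas the other 4 lay between 1.32 and 1.42. Its globin sum was 193.95 FPKM. The same library held 45.59 FPKM of the muscle gene *Mb*, which was at most 0.56 FPKM in every other library. The cause of either value was not tested.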

How the results depend on the processing

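Members called stayed at 0 in both comparisons under every alternative run. All 5 were tested each time, except *Alas2* after Ceapin-A7 with a filter at a mean FPKM above 1, since it averaged 0.641 FPKM there. In OIR, 5 genes of all tested were called, 9 with no filter, 2772 with array weights, 11 with all 20 libraries in 1 fit, and 5 to 9 when 1 library was left out (9 without Atf6 KO OIR replicate 5). After Ceapin-A7 the number was 0, and 1 with all 20 libraries. Array weights turned *Alas2* in OIR to 0.084 (limma adjusted p = 0.922), and the lens covariate, chosen after seeing the data, turned *Hba-a1* and *Hba-a2* after Ceapin-A7 to 0.041 and 0.022. Leaving out 1 library gave log2 fold changes after Ceapin-A7 from -0.24 to 0.14 for *Hba-a1*, -0.20 to 0.11 for *Hba-a2*, -0.25 to 0.13 for *Hbb-bs*, -0.55 to -0.12 for *Hbb-bt* and 0.04 to 0.57 for *Alas2*. In OIR they ran from -0.96 to -0.24, -0.93 to -0.17, -1.09 to -0.37, -1.05 to -0.31 and -0.81 to -0.10. The cause of these shifts was not tested. Libraries with the same replicate number correlated between -0.258 and 0.210 in OIR and between -0.217 and 0.310 after Ceapin-A7, and 0 and 1 of 5 correlated best with their own number, so the numbers were not taken as pairs. With the replicate number as a block, 5 and 0 genes were called and 0 members in either. Genes at an unadjusted p of 0.05 or less numbered 2002 in OIR (1091 to 4014 with 1 library left out, 5750 with array weights) and 1596 after Ceapin-A7 (953 to 2532). The split between paralogs and *Alas2* at P30 are limited by short unique sequence and low FPKM.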
